A study of Homo sapiens with 6 samples.

Results

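Interleukin-6 (IL-6) was given to the ovarian carcinoma line SKOV-3 with and without the antibody siltuximab (CNTO328), and the pair of arrays that differ by the antibody is described here. It makes up 2 of the 6 arrays of the series, 1 array per group. The first carried RNA of cells labelled SKOV-3 given 30 ng/ml IL-6 for 1 h. The second carried RNA of cells held with siltuximab for 4 h before the same IL-6. The labels used here do not give the antibody's dose. An untreated SKOV-3 array and 3 arrays of the ovarian carcinoma line Caov-3, treated in the same 3 ways, are set beside them. Each array held RNA pooled from 3 flasks, so no difference between arrays has a replicate check, and no p-value is given. No array of cells given the antibody alone was analysed here.

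IL-6 binds its receptor and the shared subunit gp130 (IL6ST), which brings JAK kinases together, and these phosphorylate the transcription factor STAT3. STAT3 then switches on early genes, among them SOCS3, a feedback inhibitor of JAK kinases, JUNB, an AP-1 subunit, and STAT3 itself. Siltuximab is a chimeric antibody that binds IL-6 and keeps it from its receptor. Ovarian carcinoma cells are known to make IL-6 as well as respond to it.

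A probe set is a group of short probes on the array for 1 transcript, and many genes have several. Its value is a signal on a linear scale with no unit. A fold is the difference of log2(signal + 17.06) between the array with siltuximab plus IL-6 and the array with IL-6, so a fold above 0 means a higher signal with the antibody, and the added 17.06 makes folds of dim probe sets smaller than the ratio of their signals. A probe set counted as measured if the mean of its 2 log2 values reached the mean of the medians of the 2 arrays. Of the 54675 probe sets on the array, the 41091 with 1 gene symbol were used, and this kept 22292 of them. These stand for 11639 genes, of which 5925 had 2 or more measured probe sets. A gene met the rule if all of its measured probe sets, at least 2, stood on the same side of 0, and it is described below if every one of them also passed a limit of 25%, the higher array exceeding the lower by at least 25% after the addition (0.32 on the log2 scale).

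With siltuximab, 54 of the 5925 genes (0.911%) were higher past the 25% limit on every measured probe set and 49 (0.827%) lower past it. Among those lower were the kinase-binding protein gene AKIP1, the clamp loader subunit RFC2, the origin licensing factor CDC6, the death receptor TNFRSF10B and the glucose transporter SLC2A3. Among those higher were the survival factor BCL2L1, the stress phosphatase subunit PPP1R15A and the RNA polymerase subunit POLR2L. At 1.5-fold on every measured probe set, 3 genes were higher (0.0506%) and 7 lower (0.118%). Other scalings of the arrays shifted the balance: quantile normalization gave 70 higher and 35 lower, cyclic loess 71 and 35, and folds centred within levels of signal 68 and 38.

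The promoter letters of some of these genes are shown because STAT dimers are known to bind the palindrome TTCNNNGAA, which reads the same on both strands. The windows are the 250 bases before the gene start in RefSeq (GRCh38.p14), written 5′ to 3′ along the gene's strand, with matches to the palindrome in capitals. RFC2 (chr7:74254400-74254649, minus strand), HELB (chr12:66302243-66302492, plus strand), AKIP1 (chr11:8910939-8911188, plus strand) and TNFRSF9 (chr1:7940840-7941089, minus strand) were lower with siltuximab and hold a match. Their matches begin 225, 62, 10 and 187 bases before the start. Genes that were higher hold matches in this window too, among them NIBAN2, RTN1 and NUCB1, at 194, 89 and 159 bases before the start. The lower genes TOR4A, ASAP3 and CDC6 hold none. The letters of these genes are not printed. SOCS3 (chr17:78360926-78361175, minus strand) and JUNB (chr19:12791236-12791485, plus strand), known early genes of the pathway, hold none in this window. The window follows the gene start used here, and letters near any other start of these genes were not examined. The lack of a match therefore does not show that either gene lacks the palindrome in its promoter.
RFC2: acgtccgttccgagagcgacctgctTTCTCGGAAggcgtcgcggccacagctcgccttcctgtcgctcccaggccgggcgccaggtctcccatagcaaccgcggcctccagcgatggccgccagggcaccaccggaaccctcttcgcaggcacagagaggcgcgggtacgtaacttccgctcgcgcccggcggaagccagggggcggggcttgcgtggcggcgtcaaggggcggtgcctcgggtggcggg
HELB: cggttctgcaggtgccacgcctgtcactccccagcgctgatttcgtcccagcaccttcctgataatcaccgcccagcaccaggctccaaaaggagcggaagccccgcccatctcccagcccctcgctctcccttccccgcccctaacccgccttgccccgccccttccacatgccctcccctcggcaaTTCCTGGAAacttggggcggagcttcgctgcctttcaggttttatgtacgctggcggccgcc
AKIP1: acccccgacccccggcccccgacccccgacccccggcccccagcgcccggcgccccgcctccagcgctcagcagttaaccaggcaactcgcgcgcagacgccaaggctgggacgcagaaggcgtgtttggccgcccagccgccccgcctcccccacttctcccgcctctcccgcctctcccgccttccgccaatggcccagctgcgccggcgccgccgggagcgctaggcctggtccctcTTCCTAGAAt
TNFRSF9: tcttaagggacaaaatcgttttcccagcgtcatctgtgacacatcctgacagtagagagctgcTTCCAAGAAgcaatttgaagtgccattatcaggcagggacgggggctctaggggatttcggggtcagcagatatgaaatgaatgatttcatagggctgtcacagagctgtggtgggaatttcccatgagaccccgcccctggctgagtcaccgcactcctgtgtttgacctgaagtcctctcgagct
SOCS3: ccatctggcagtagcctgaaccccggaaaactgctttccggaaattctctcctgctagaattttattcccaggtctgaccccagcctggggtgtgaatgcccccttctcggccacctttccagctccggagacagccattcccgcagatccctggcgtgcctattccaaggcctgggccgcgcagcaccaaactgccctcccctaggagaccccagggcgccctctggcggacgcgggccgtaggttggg
JUNB: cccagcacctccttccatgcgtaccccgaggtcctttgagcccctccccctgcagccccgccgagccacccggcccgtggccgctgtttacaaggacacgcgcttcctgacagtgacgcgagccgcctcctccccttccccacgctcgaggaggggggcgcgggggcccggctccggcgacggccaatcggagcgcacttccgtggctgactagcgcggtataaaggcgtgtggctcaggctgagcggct
Over the full windows of 300 bases, 50 of them past the start, 323 of all 4955 matched genes (6.52%) hold the palindrome. Of the 48 matched genes that were higher 4 do (8.33%), NIBAN2, RTN1, CABIN1 and NUCB1. Of the 49 lower genes, 35 (71.4%) had an entry in the table of promoters, too few for a comparison, so that check is void. Of these, 7 hold it, the 4 printed above with TMEM106A, DDOST and YIPF4. The genes named for a match were chosen after their values were seen. A match is a description of the letters and shows no binding.

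The labelled tissue was checked against defining markers. The arrays labelled SKOV-3 had high signals for the epithelial keratins KRT8 (7079 to 8584) and KRT18 (25949 to 31109), for KRT7, and for EPCAM (1728 to 2223), and PAX8, a factor of Müllerian epithelium, stood at 495 to 683. The mesenchymal filament gene VIM stood at 21292 to 25831. KRT19 (at most 57.9), CDH1 (at most 33.9), WT1 (at most 8.05) and MUC16, which encodes CA-125 (at most 5.90), were near the floor. SKOV-3 is known for an amplified ERBB2 gene, yet the brightest ERBB2 probe set read 580 to 733 on these arrays and 1017 to 1243 on those labelled Caov-3. This goes against that known feature, so the names SKOV-3 and Caov-3 stand here for the labels. The leukocyte markers PTPRC and CD3D (at most 41.4), the fibroblast marker PDGFRB (at most 11.5) and the endothelial marker CDH5 (at most 22.4) were near the floor. Other markers of these cells reached higher values without counting as measured. The fibroblast gene PDGFRA reached 89.9 on the untreated array (median 83.7), and DCN 92.8 on the IL-6 array (median 80.5). The endothelial gene VWF stood at most at 60.4. Measured on at least 1 probe set were the B-cell gene CD79A (180 to 344), the monocyte gene CD14 (77.6 to 135) and ITGAX (73.8 to 84.6). The endothelial and platelet gene PECAM1 (125 to 176) and the matrix gene POSTN (172 to 223) were measured as well. Of the lists of markers of other cells, 4 of 16 leukocyte genes and 2 of 15 fibroblast and endothelial genes were measured. Signals were also summed over all 16 and all 15 genes, measured or not, each at its brightest probe set. On the untreated, IL-6 and siltuximab arrays the sums were 1211, 842 and 849 for leukocyte genes and 755, 765 and 767 for the others. On the IL-6 array, 11 of the 16 and 12 of the 15 lay below the median signal. The other measured gene, LCP1, an actin bundling protein of leukocytes that carcinoma lines also express, read 170, 50.8 and 121 (fold 1.03, on 1 dim probe set).

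The arrays had been scaled to the same trimmed mean, and their medians ran from 75.7 to 83.7 for SKOV-3. The ACTB control probe sets, whose 5′ to 3′ signal ratio reports RNA or labelling quality, gave 0.735, 0.668 and 0.767 on the untreated, IL-6 and siltuximab arrays. In Caov-3 the same ratios were 0.660, 0.494 and 0.643. The IL-6 array was thus the lowest of its line in both. The ratios for GAPDH ran from 0.957 to 1.07 over the 6 arrays. The 12 probe sets for spiked poly-A RNA read 0.647 and 0.672 times the level of the SKOV-3 IL-6 array on the untreated and siltuximab arrays. In Caov-3 they read 0.675 untreated, 1.01 with IL-6 and 0.796 with siltuximab, on the same scale. The Caov-3 IL-6 array also had the lowest median signal, 72.6, against 89.6 and 88.6. Their part in the results below was not tested.

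The spread of folds set the scale on which each gene was read. The median fold over measured probe sets was -0.01. The robust SD of the folds (a scaled median absolute deviation) was 0.40 in the dimmest of 10 equal groups of probe sets by signal, with signals of 78.1 to 113. Folds from -0.76 to 0.69 covered the 5th to 95th percentile there. In the brightest group, with signals above 3730, the robust SD was 0.11 and the range -0.18 to 0.23. A 25% difference therefore lies well inside the spread of dim probe sets and outside that of bright ones. The median signal of the lower genes was 208 and that of the higher genes 374, against 546 for all 5925. Only 17 of the 54 higher and 12 of the 49 lower genes had every measured probe set outside the 5th to 95th percentile for its level.

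**Figure D1:**
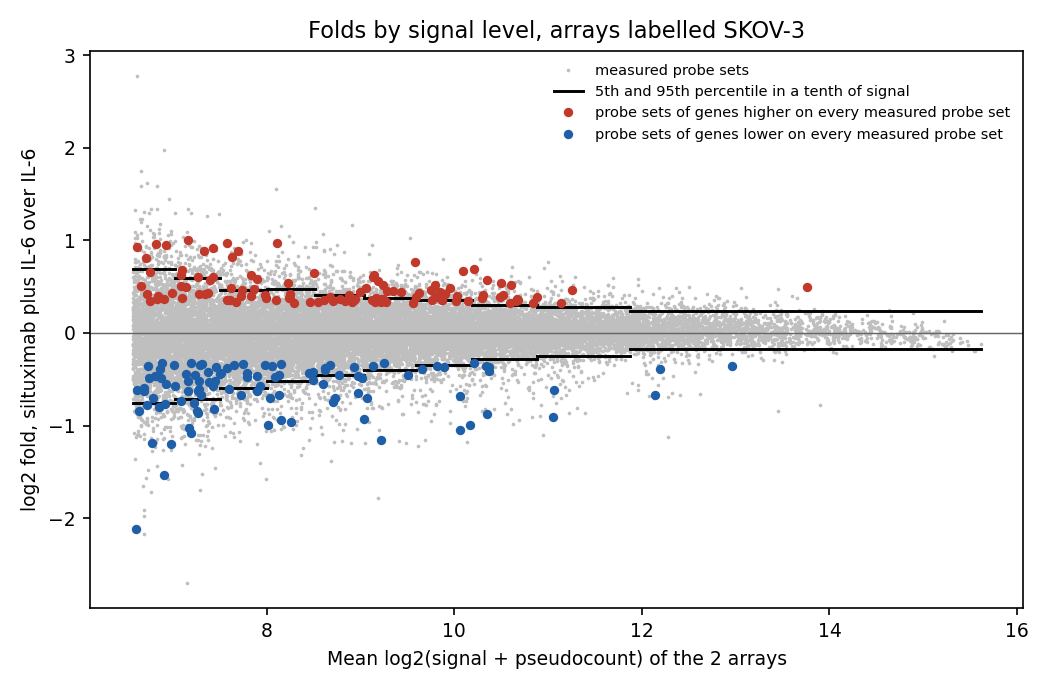
Log2 fold of each measured probe set (siltuximab plus IL-6 over IL-6, arrays labelled SKOV-3) against the mean log2(signal + 17.06) of the 2 arrays, with the 5th and 95th percentiles of each of 10 groups by signal as black steps. Probe sets of the 54 higher genes (red) and the 49 lower genes (blue) have median signals of 374 and 208 per gene, below the 546 of all genes tested, on the side where the grey cloud is wider.

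Probe sets of the same gene agreed little. All measured probe sets stood on the same side of 0 for 2410 of the 5925 genes (40.7%), 1133 of them higher (19.1%) and 1277 lower (21.6%). With exactly 2 measured probe sets the share on the same side was 54.8% (1735 of 3167 genes), with 3 it was 32.0%, and with 4 or more it was 14.3%. Random signs would give a fall as well, because more probe sets have to share a side. The 2 brightest probe sets alone shared a side for 54.8%, 55.4% and 55.3% of these genes, with no such fall. Across the 5925 genes the folds of the 2 brightest probe sets correlated at r = 0.10 (Spearman 0.12), a description across genes that share both arrays. Where both lay in the 3 brightest groups (1421 genes) r was 0.29, and where both lay in the 3 dimmest (1162 genes) it was 0.04. Most genes described here rest on 2 probe sets, 49 of the 54 higher and 44 of the 49 lower, and the others on 3. A probe set whose name ends in _x or _s can match several transcripts, and 40 of the higher and 34 of the lower genes have at least 1 of these, as do 69.8% of all 5925.

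**Figure D2:**
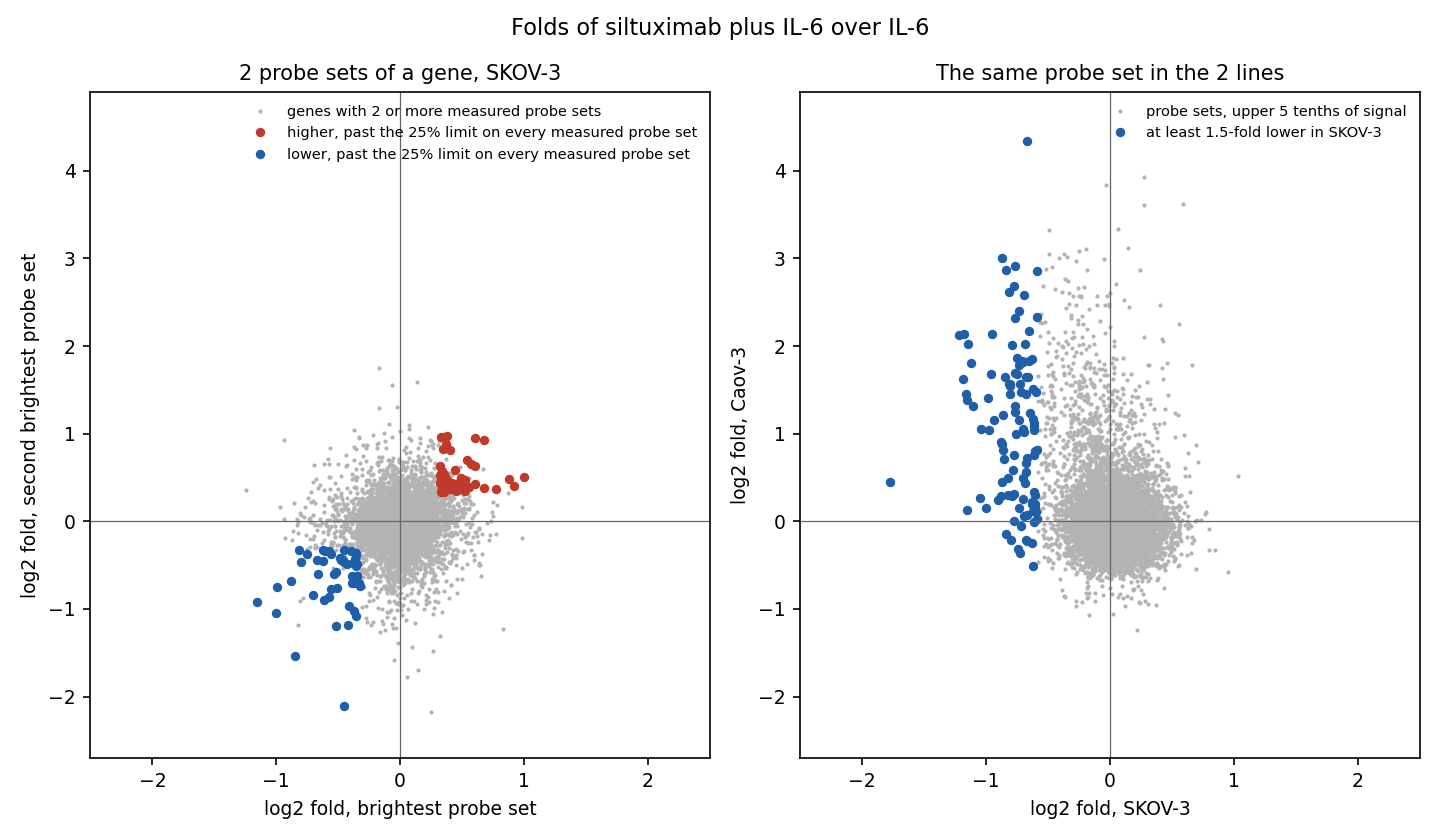
Left: log2 folds of the 2 brightest measured probe sets of each gene, SKOV-3, with the genes higher (red) or lower (blue) past the 25% limit on every measured probe set. Right: log2 fold of each probe set in the 5 brighter of 10 groups by signal, in SKOV-3 (horizontal) and Caov-3 (vertical), with the 111 probe sets at least 1.5-fold lower in SKOV-3 in blue, most of which lie above 0 in Caov-3.

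RFC2, a subunit of the complex that loads the PCNA clamp, read 777 untreated, 1331 with IL-6 and 826 with siltuximab plus IL-6 on one probe set (fold -0.68), and 1021, 1752 and 945 on the other (-0.88). CDC6, which helps load the MCM helicase at origins, read 1398, 2886 and 1536 (-0.90), and 1820, 2632 and 1713 (-0.61). For both genes the IL-6 array was the high one and the siltuximab array stood near the untreated array. HELB, a DNA helicase, was dimmer, at 78.0, 182 and 108 (-0.67) and at 103, 110 and 66.8 (-0.60), and its folds lay inside the range for their level. The list of mitosis and DNA replication genes, which holds neither RFC2 nor HELB, had 35 measured members and a median of 0.01. Past the 25% limit 1 was higher and 1 lower (2.86%, against 8.04% of all genes measured), CDC6 at a mean of -0.76, and the next lowest, MKI67, stood at -0.15.

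AKIP1, which binds protein kinase A and the NF-kB subunit p65, had the largest smaller fold of all lower genes. Its signals were 977, 1610 and 797 (-0.999) and 788, 1525 and 726 (-1.05) on the untreated, IL-6 and siltuximab arrays. TOR4A, an ATPase of the torsin family, read 455, 870 and 382 (-1.15) and 424, 706 and 363 (-0.93). Both genes rest on probe sets of the _s or _x kind, which can match other transcripts. ASAP3, a GTPase-activating protein for ARF proteins, read 126, 176 and 97.7 (-0.75) and 381, 346 and 166 (-0.99), so that its brighter probe set was high on the untreated array as well. PANX2, a channel of the pannexin family, read 173, 116 and 57.1 (-0.85) and 46.7, 124 and 69.3 (-0.70), with the untreated array highest on one probe set and lowest on the other.

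ERBB3, the partner receptor of ERBB2, read 108, 142 and 89.8 (-0.57) and 162, 153 and 102 (-0.52) on the untreated, IL-6 and siltuximab arrays. These folds lay within the 5th to 95th percentile of dim probe sets. TNFRSF10B, a death receptor for TRAIL, was lower on 3 probe sets, of which the brightest read 4631, 5342 and 4079 (-0.39), outside the range for its level. Its other measured folds were -0.70 and -0.65, and a further, dim probe set stood at -0.00. TNFRSF9, a costimulatory receptor better known from T cells, read 384, 412 and 284 (-0.51) and 76.5, 140 and 75.4 (-0.76). It falls outside the rule for naming genes and was named for its promoter. SLC2A3, a glucose transporter, stood at -0.49, -0.67 and -0.42 on its 3 probe sets, all of the _s or _x kind. ITPR1, a calcium channel of the endoplasmic reticulum, stood at -0.38, -0.47 and -0.34. IGFBP5, a secreted binding protein for insulin-like growth factors, read 90.3, 191 and 97.3 (-0.87) and 159, 282 and 183 (-0.58).

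The other lower genes named by rule were mostly dim. PAFAH2, which degrades platelet-activating factor, read 101, 130 and 83.1 (-0.56) and 86.3, 121 and 63.7 (-0.77). SFI1, a protein of the centriole, stood at -1.53, -0.85 and -0.46 on measured probe sets and at 0.48 on one below the median signal. NDRG3 stood at -0.41, -0.96 and -0.94, and its brightest probe set read 1409, 1506 and 1126. ZNF843, a zinc finger gene, stood at -1.20 and -0.52, and MGC16275 at -0.60 and -0.53. DDOST, a subunit of the complex that attaches N-glycans, was named here after its values were seen as the brightest of the lower genes. It read 3031, 5682 and 3573 (-0.67) and 7673, 8991 and 7008 (-0.36), with the IL-6 array highest on both.

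**Figure D3:**
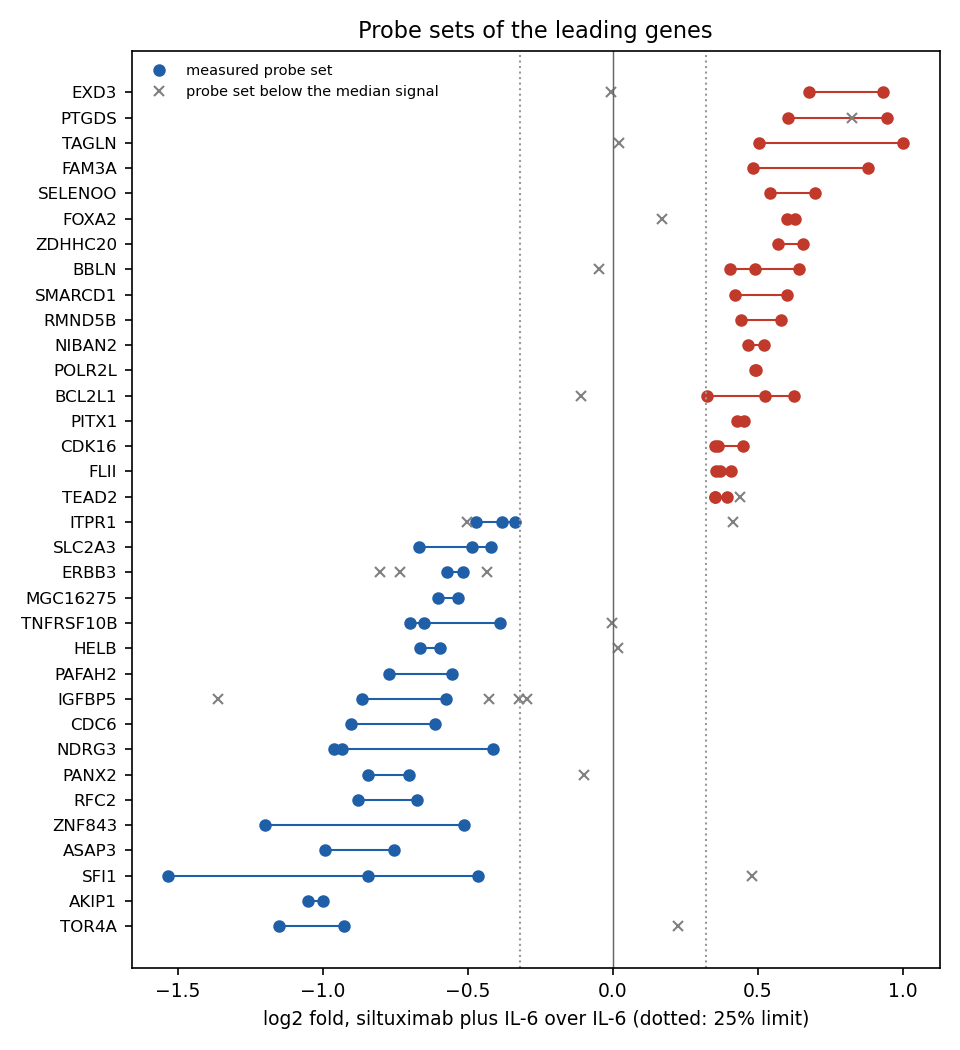
Log2 fold of every probe set of the leading higher genes (red) and lower genes (blue), siltuximab plus IL-6 over IL-6, on the arrays labelled SKOV-3; crosses are probe sets below the median signal and dotted lines mark the 25% limit. The 2 probe sets of AKIP1 lie at -0.999 and -1.05, whereas those of SFI1 run from -1.53 to -0.46 with a dim one at 0.48.

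The higher genes included several of high signal. POLR2L, a small subunit that the nuclear RNA polymerases share, read 479, 434 and 616 on one probe set and 16524, 11718 and 16518 on the other, with a fold of 0.49 on each. The brighter lies in the group where folds are narrowest, and its siltuximab array stood at the untreated level. PPP1R15A, a stress-induced subunit that directs a phosphatase to the initiation factor eIF2 alpha, read 2011, 1243 and 1627 (0.38) and 2819, 2062 and 2847 (0.46). SELENOO, a mitochondrial selenoprotein, read 1098, 912 and 1489 (0.70) and 1305, 1185 and 1731 (0.54), above the untreated array on both probe sets. ZDHHC20, a palmitoyltransferase, read 1880, 1053 and 1571 (0.57) and 77.1, 69.1 and 119 (0.66). RMND5B, of a ubiquitin ligase complex, stood at 0.58 and 0.44, and NIBAN2 at 0.52 and 0.47.

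BCL2L1, which encodes the anti-apoptotic protein BCL-XL and is a known STAT3 target, was higher with the antibody on its 3 measured probe sets. They read 645, 438 and 686 (0.63), 692, 486 and 706 (0.52) and 1600, 1366 and 1714 (0.32). The IL-6 array was the lowest of the 3 on each, and the brightest probe set lay just inside the 25% limit. A dim probe set of the gene stood at -0.11. BCL2L1 passed the limit on every measured probe set under 5 of 10 other settings, the lowest number among the higher genes. FLII, an actin-binding protein, stood at 0.41, 0.35 and 0.37, CDK16, a cyclin-dependent kinase, at 0.36, 0.35 and 0.45, TEAD2, a factor of the Hippo pathway, at 0.35, 0.40 and 0.35, and BBLN at 0.40, 0.64 and 0.49.

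FOXA2, a forkhead factor, read 55.6, 92.5 and 152 (0.63) and 192, 108 and 173 (0.60), with the untreated array lowest on one and highest on the other. PITX1, a homeobox factor, stood at 0.45 and 0.43, and SMARCD1, a subunit of SWI/SNF remodelling complexes, at 0.42 and 0.60. EXD3, with an exonuclease domain, had the largest smaller fold of the higher genes, 91.4 and 156 (0.68) and 54.2 and 119 (0.93) on the IL-6 and siltuximab arrays. PTGDS, a prostaglandin D2 synthase, stood at 0.61 and 0.95, both on probe sets of the _x kind. TAGLN, an actin-binding protein of smooth muscle, stood at 1.001 and 0.50 and at 0.02 on a dim probe set, and FAM3A at 0.48 and 0.88. Of the 54 higher genes, 3 kept to the rule under all 10 other settings of pseudocount, filter, scaling and probe set type: PPP1R15A, the RNA-binding protein gene FXR2 and GFUS, a GDP-fucose synthase. Of the 49 lower genes none did. AKIP1, RFC2, CDC6, MGC16275, UTP15 and DDOST did under 9. The 34 lower genes with a probe set of the _x or _s kind keep fewer than 2 others. They could not pass the setting that drops such probe sets, nor could the 40 higher genes with one, apart from TEAD2. These counts are therefore no measure of which direction is more stable.

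Just inside the 25% limit lay NECAP2 and NCR2 among the lower genes, with smaller folds of 0.32 in size, and STARD10 and BCL2L1 among the higher (0.32). Just outside it lay PPFIA3 and RECQL4 (higher) and SGF29 and TRMT10A (lower), also at 0.32.

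Of the 4 marker genes of the IL-6 pathway, none met the rule. SOCS3, the feedback inhibitor, read 1159 untreated, 1602 with IL-6 and 1321 with siltuximab plus IL-6 on its brightest probe set (fold -0.28). This lay at the 5.25th percentile for its level. Its other measured probe sets stood at -0.10 and 0.05, and a dim one at -1.23 (16.5, 38.8 and 6.83). STAT3 read 1330, 2527 and 1463 (-0.78) and 718, 1180 and 637 (-0.87) on a pair of probe sets, at the 0.269th and 0.314th percentile for their level. The other measured probe set read 554, 526 and 567 (0.10), with no more signal on the IL-6 array than on the others. With no filter on low signal the mean fold of STAT3 was -0.35, against -0.52 over these 3 probe sets. JUNB, with 1 probe set, read 341, 530 and 380 (-0.46), at the 4.80th percentile. C3, the central complement protein, read 206, 245 and 123 (-0.90) on 1 probe set, at the 0.852th percentile, and was lowest on the siltuximab array. JUNB and C3 could not meet a rule that needs 2 probe sets.

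**Figure D4:**
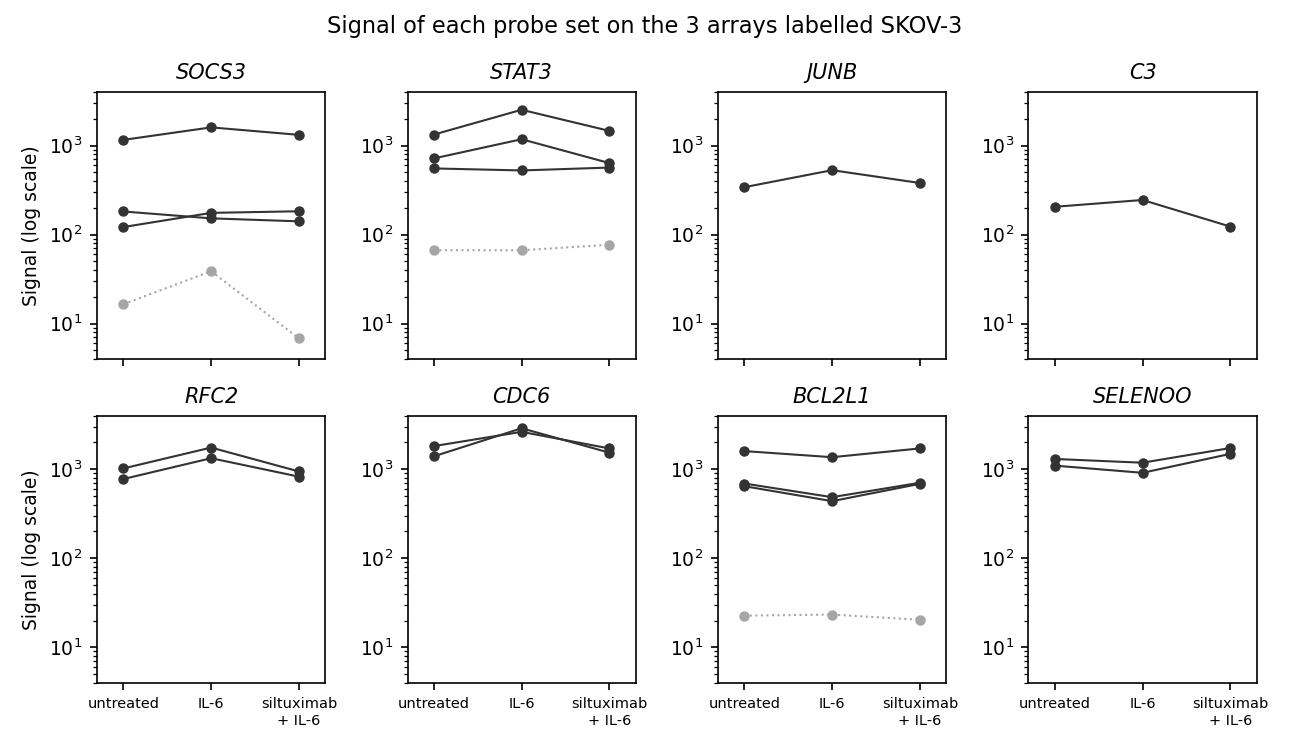
Signal (log scale) of each probe set of 8 genes on the untreated, IL-6 and siltuximab plus IL-6 arrays labelled SKOV-3, 1 array each and no error bars; grey dotted lines are probe sets below the median. STAT3 has 2 measured probe sets high on the IL-6 array and 1 that is level, whereas both probe sets of RFC2 and CDC6 are high there.

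Of the 32 measured genes of the early IL-6 and STAT3 response, 22 had a mean fold below 0. Past the 25% limit were 6 lower (18.8%) and 1 higher, against 8.04% and 7.48% of all 11639 genes, of which 49.9% were above 0. The list's median was -0.08, that of all genes -0.00. The 6 were OSMR, SOCS1, STAT3, JUNB, PIM1 and FOS, and the one higher was IL4R at 0.36. SOCS1, another feedback inhibitor, rests on 1 probe set at 126 and 79.8 (-0.56), FOS on 1 at 547 and 432 (-0.33). Of the 19 members with 2 or more measured probe sets 6 were lower on all and 1 higher on all, and none passed the limit on all. Of 28 genes of IL-6 receptors and signalling, 16 were below 0. OSMR, the oncostatin M receptor, had folds of -0.39, -1.19 and -0.23, and PTPRE, a phosphatase that acts on JAK signalling, stood at -0.48 on 1 probe set. IL6 itself read 781, 677 and 540 (-0.32), highest on the untreated array. HRAS stood at 0.36. The early response and receptor lists share OSMR and STAT3, and the next lists share members as well.

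For the lists that follow, the shares of all genes measured are the same as above. Past the limit 8.04% were lower and 7.48% higher, and 49.9% were above 0. Of 15 measured survival and growth targets of STAT3, 10 were above 0 and 5 below. Besides BCL2L1, AKT1 was higher past the 25% limit (1002, 781 and 998, fold 0.35), and none was lower by as much. Of 33 immediate early genes 13 were above 0 and 20 below, with EGR3 (0.42) and FOSL1 (0.38, from 4370 to 5694) higher and JUNB and FOS lower past the limit. Of 25 NF-kB targets 10 were above 0. RELB read 682, 511 and 760 (0.56) and NFKBIE, an inhibitor of NF-kB, 590, 588 and 762 (0.36), and none was lower past the limit. Of 32 interferon-stimulated genes 20 were above 0, and IFIT3 (mean -0.54, probe sets at -1.12 and 0.04) and GBP2 (-0.35) were lower. Of 13 acute phase and complement genes 8 were above 0, with C3 and C1S (-0.64) lower and CLU (0.43) higher. CLU stands at -0.000338 if a probe set counts as measured once its higher array passes the median.

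Of 25 genes for protein folding stress or amino acid shortage 15 were above 0, with PPP1R15A and CHAC1 (0.36) higher and SLC7A11 (-0.34) lower past the limit. Cholesterol synthesis had 13 of 17 above 0, with LSS, lanosterol synthase, at 0.44. The regulator SREBF2 had a mean of -0.52, with probe sets from -1.16 to 0.007. Heat shock genes had 7 of 12 above 0 and CRYAB at -0.58, and hypoxia and glycolysis genes 8 of 23 above 0. Epithelial genes had the lowest median of the 17 lists, -0.09. Past the 25% limit by mean fold, 4 of 13 (30.8%) were lower (ERBB3, ELF3, EPCAM and MUC1), against 8.04% of all genes measured. The 2 higher (15.4%, against 7.48%) were CLDN4 and ERBB2. Of the 13 genes, 8 rest on 1 measured probe set, among them EPCAM, CLDN4 and ERBB2. The measured probe sets of ELF3 stood at -0.82 and -0.005. With a stricter filter on signal that median was 0.08. Mesenchymal genes had 4 of 12 above 0, with FN1 at a mean of -0.45 and probe sets from -1.01 to 0.04. Reference genes had 3 of 11 above 0 with none past the limit.

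**Figure D5:**
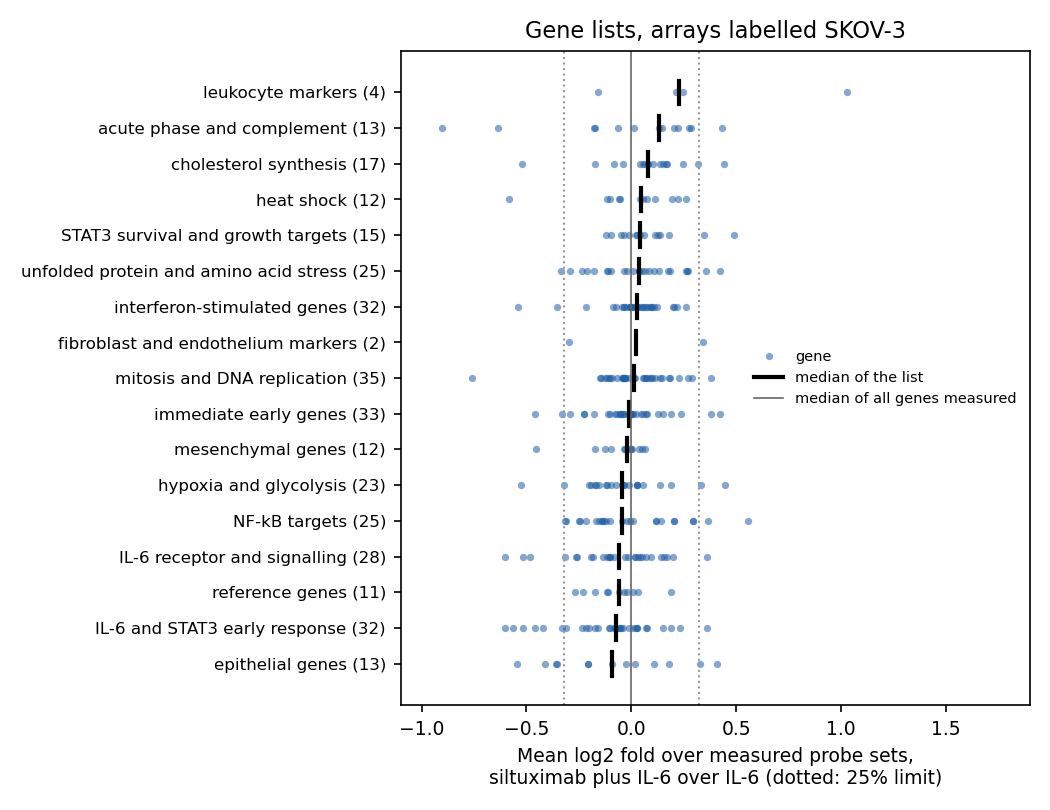
Mean log2 fold of each measured gene (points) in the 17 lists, siltuximab plus IL-6 over IL-6, arrays labelled SKOV-3, with the number measured in brackets, the median of each list (bar) and dotted lines at the 25% limit. Medians run from -0.09 for epithelial genes to 0.23 for leukocyte markers, of which 4 were measured.

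The same comparison in Caov-3 shares no array with that in SKOV-3. There 172 of 5962 genes (2.88%) were higher past the 25% limit on every measured probe set and 75 (1.26%) lower, with 18.5% all higher and 22.1% all lower. Of the 49 genes lower in SKOV-3, 31 had 2 or more measured probe sets in Caov-3. All of these were higher there for 14 genes (45.2%) and lower for 6 (19.4%), against 18.0% and 22.0% of the 5259 genes measured in both lines. Among 1448 genes of similar level the shares were 20.2% and 19.9%. The median Caov-3 fold of the 31 was 0.30, against 0.04 for the 5259. Of the 54 genes higher in SKOV-3, 43 were measured in Caov-3, with 7 all higher (16.3%), 11 all lower (25.6%) and a median of -0.00. The 25% limit was passed in both lines the same way by 3 genes, FIZ1, MIA2 and PANX2, and opposite ways by 5, RFC2, RIPOR1, SLC2A3, STARD10 and TAF1. RFC2 read 1038, 495 and 742 in Caov-3 on the untreated, IL-6 and siltuximab arrays (0.57) and 1337, 494 and 939 (0.90), so its IL-6 array was the low one there and the high one in SKOV-3.

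Set against the untreated arrays, the 49 lower genes had a median fold of 0.36 for IL-6 and -0.20 for siltuximab plus IL-6 in SKOV-3, and 46 of 49 were above 0 with IL-6, as were 3259 of all 5925 genes (median 0.03). The 54 higher genes stood at -0.33 and 0.13, with 0 of 54 above 0 for IL-6. These comparisons share arrays with the one that chose the genes. In Caov-3 the 31 lower genes stood at -0.21 and -0.19.

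Single bright probe sets that were lower with siltuximab in SKOV-3 were mostly higher with it in Caov-3. This was looked at after the values of RFC2 and OSMR had been seen. Of 10976 probe sets measured in both lines and in the 5 brighter of the 10 groups by signal in SKOV-3 (above 509), 111 were at least 1.5-fold lower with siltuximab in SKOV-3. In Caov-3, 71 of the 111 (64.0%) were at least 1.5-fold higher and 0 lower, against 7.38% higher among all 10976, and their median fold there was 1.05. Probe sets higher in SKOV-3 did not show this. Of the 37 at least 1.5-fold higher there, 7 were also higher in Caov-3 (18.9%, against 7.38% of all 10976) and 0 lower. Over all 19808 probe sets measured in both lines the folds correlated at r = -0.17 (Spearman -0.11), and at -0.25 in the 5 brighter groups, as a description across probe sets that share 4 arrays. Deviations of a probe set from its gene's mean fold correlated at -0.18, over 14220 probe sets of 5236 genes.

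The 111 probe sets belong to 102 genes, of which 6 are among the 49 lower genes: AKIP1, CDC6, DDOST, RFC2, TNFRSF10B and TOR4A. For 97 of them another probe set of the gene was measured. The 97 had a median fold of -0.73 and those other probe sets -0.12. The others were at least 1.5-fold lower for 7 and above 0 for 22. OSMR shows the pattern: on 1 probe set it read 459, 1066 and 459 in SKOV-3 and 605, 114 and 387 in Caov-3, while its other probe sets stood at -0.39 and -0.23 in SKOV-3. IFIT3 read 4772, 7310 and 3348 in SKOV-3 and 4170, 682 and 2430 in Caov-3 on one probe set, and its other, brighter one stood at 0.04 in SKOV-3. SLC7A11 read 1203, 2869 and 1326 and then 469, 84.9 and 237, with its other probe sets at 0.14 and -0.05. ICAM1 had -0.68 on 1 probe set in SKOV-3 and 2.02 in Caov-3, with -0.10 and -0.14 on the others. The pair of STAT3 probe sets that were lower in SKOV-3 stood at 0.58 and 0.45 in Caov-3. The 111 had a median fold of 0.72 for IL-6 over untreated in SKOV-3 and -1.58 in Caov-3, and of -0.04 and -0.42 for siltuximab plus IL-6 over untreated. By these medians the IL-6 array stood farthest from the untreated one, as the high one in SKOV-3 and the low one in Caov-3. The SKOV-3 medians share the arrays that chose these probe sets, and that choice favours a high IL-6 array there. Only the Caov-3 medians come from arrays not used in the choice of a fold. The IL-6 array is also the one with the lowest ACTB ratio of its line (0.668 and 0.494) and the highest poly-A signal, whose part in this was not tested.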

How the data were processed

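RNA was measured on 6 arrays, 1 per group. Per the submitters' processing notes, the authors made the deposited signal intensities with Affymetrix Expression Console and MAS5, on a linear scale. The sources used here give no versions of these. Each array had a mean near 500.07 after trimming 2% at each end, so values had been scaled by array. No detection calls were used. The 41091 probe sets with 1 gene symbol in the array's annotation were used, and 41037 symbols were matched to current records. Probe sets with several symbols (1801) or none (11721) were left out.

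Values were taken to log2 after adding 17.06, the 20th percentile of all 6 arrays, with no further normalization. Calculations used pandas 2.3.3 and numpy 2.4.6 in Python 3.11.15, and the other scalings limma 3.58.1 in R 4.3.3. The call of concordant genes was run on simulated data to check the code. No rate of false calls is given from it. It therefore does not show how many of the genes described here could arise from noise. Genes to be named were SOCS3, STAT3, JUNB and C3, per direction the 12 genes whose smaller fold was largest and the 6 with the most probe sets, and per list the 4 members farthest from 0 by mean fold. Any other gene named was chosen after its values were seen. The rule of the comparison, its markers and the 17 lists were chosen with earlier results of these data known. Alternatives were other pseudocounts, filters, scalings, fold limits, and leaving out probe sets of the _x or _s kind. The precision of each value is limited by having 1 array per group.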

Additional observations from a re-analysis of the deposited data

Results flagged for a closer look

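RFC2 and PAFAH2 stood in opposite directions in the 2 lines, with every measured probe set lower in SKOV-3 and higher in Caov-3. The mean fold of RFC2 was -0.78 in SKOV-3, against 0.73 in Caov-3, on 2 measured probe sets in each. PAFAH2 had -0.66 on 2 probe sets in SKOV-3 and 0.65 on 1 in Caov-3. With 1 array per group, the difference between the lines was not tested.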

How the results depend on the processing

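No paired analysis was possible because each group has 1 array, and leaving out a replicate was not possible either. Of 301 values of counts, spreads, agreement, markers and lists under other settings, 32 moved, a fold counting as moved past the robust SD for its level. The 4 marker genes kept a mean fold below 0 under all settings that gave a value. SOCS3 went from -0.11 to -0.39 with no filter, which adds its dim probe set, and to -0.28 at the 75th percentile. STAT3 went from -0.52 to -0.35 with no filter and -0.34 without _x and _s probe sets. The 54 higher and 49 lower genes became 18 and 19 with the median of the deposited values as pseudocount, 21 and 8 when signals had to reach the 75th percentile, 207 and 204 with no filter, and 24 and 29 without probe sets of the _x or _s kind. They became 3 and 7 at 1.5-fold, and 24 and 16 if every probe set had to lie outside the 5th to 95th percentile for its level. Of the 54 and 49, 42 and 28 were called with no filter, and 15 and 15 without _x and _s probe sets. The last outcome was fixed by probe set names. A gene with 2 or more other measured probe sets had to pass again, and any other gene had to fail. The robust SD in the dimmest of 10 groups by signal was 0.22 with the larger pseudocount, 0.71 with the filter on the higher array, 0.21 at the 75th percentile and 0.21 with no filter. The share of genes with all probe sets on one side was 47.8% at the 75th percentile, 35.4% with no filter and 43.5% without _x and _s probe sets. With the filter on the higher array, list medians became 0.014 (acute phase), -0.16 (leukocyte) and -0.30 (fibroblast and endothelium), and CLU went from 0.43 to -0.000338. At the 75th percentile the epithelial median was 0.078, and with no filter the leukocyte median was 0.019. Without _x and _s probe sets the medians were -0.19 (early response), -0.30 (fibroblast and endothelium) and -0.16 (reference genes). Of the lower genes, 0% were all lower in Caov-3 at the 75th percentile (0 of 7 measured) and 0% without _x and _s probe sets (0 of 4). Other scalings moved this share the other way, from 19.4% (6 of 31) in the main setting. It was 32.3% (10 of 31) with quantile normalization and with cyclic loess, and 29.0% (9 of 31) with centred folds. The share over all genes under these scalings is not given here. The promoter palindrome was in 0% of the higher genes without _x and _s probe sets (0 of 21). For the lower genes, where that check is void, it was in 3 of 6 with an entry (50%) at the 75th percentile and 12 of 129 (9.30%) with no filter. Beyond the numbers of probe sets and genes that each setting keeps, the cause was not tested. Low signal limits most folds: in the dimmest group a 25% difference is smaller than the robust SD.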
